A study of Homo sapiens with 4 samples.

Results

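Long non-coding RNAs (lncRNAs) of the nucleus and of imprinted loci were followed in the gastric cancer line HGC-27, grown from a human tumour, after treatment with the TEAD4-binding peptide GLUP. They were *MALAT1*, *NEAT1*, *TUG1*, *NORAD*, *H19*, *KCNQ1OT1* and *MEG3*, chosen by name, and all 7 were found among the 62443 genes of the table. The design held 4 libraries, 2 from cells given GLUP at 10 μg/ml and 2 from control cells. The control cells are labelled as having no treatment, while the study's methods describe the stocking buffer of the peptide, and the time of treatment is given as 12 h in the results text and as 48 h in the methods. All libraries came from the same line, and the study's methods call the replicates biological without saying how the cultures were separated, so that p-values measure only the spread between these libraries. GLUP is a synthetic peptide made to bring TEAD4 molecules together, and TEAD4 is the DNA-binding partner of the Hippo pathway co-activator YAP.

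These RNAs are studied as non-coding RNAs, although *TUG1* is annotated as protein-coding in the release used here. *MALAT1* gathers in nuclear speckles, bodies rich in splicing factors, and its end is made by RNase P rather than by polyadenylation. *NEAT1* is the scaffold of paraspeckles, *NORAD* is a cytoplasmic RNA that binds Pumilio proteins and bears on chromosome stability, and *TUG1* is a widely expressed lncRNA that has been linked to Polycomb repression. *H19*, *KCNQ1OT1* and *MEG3* are imprinted, which means that they are transcribed from a single parental allele, and each sits in a domain with imprinted protein-coding genes.

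The values are FPKM, fragments per kilobase of gene, scaled to library size, so levels set side by side allow for gene length. The study's methods do not say how RNA was selected for the libraries. The level of *MALAT1*, whose end is not made by polyadenylation, can depend on that step. Their sum was between 909735 and 949919 in each library, and the mitochondrial transcripts took between 27.2% and 29.7% of it. The sequencing depth is unknown, so no counting error can be given. Across 7588 genes, Pearson's r was 0.933 between the control libraries and 0.986 between the GLUP libraries, over genes that are not independent replicates. Markers of gastric epithelium were at or near 0, with 5 of 7 listed at 0 in every library and none at a mean of 1 FPKM, and the epithelial markers *EPCAM* and *CDH1* stayed under 0.13 FPKM, whereas *VIM*, an intermediate filament of mesenchymal cells, lay between 293 and 387 FPKM. The summed level of the 6 epithelial markers was 3.07 and 3.82 FPKM for control and 6.03 and 5.29 FPKM for GLUP. That of the 4 mesenchymal markers was 344 and 410 FPKM against 340 and 297 FPKM, and *VIM* made up most of it. Members of each list differed. The epithelial keratins *KRT8*, *KRT18* and *KRT19* were all 3 higher in both GLUP libraries, with *KRT8* at 1.05 and 1.49 FPKM against 2.25 and 2.19 FPKM. Mesenchymal *CDH2* was at 0.0508 FPKM or less. *FN1* was at 1.15 and 3.25 FPKM against 0.655 and 0.671 FPKM. *ZEB1* was at 7.05 and 19.2 FPKM against 2.88 and 2.92 FPKM. Of 6 markers of other cells, *ALB* and *HBB* were at 0, *PTPRC* and *CD68* stayed under 0.04 FPKM, and the collagen genes *COL1A1* and *COL3A1* made up nearly all of a sum between 18.98 and 28.4 FPKM. The part of these markers in the results below was not tested.

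*MALAT1* stood far above the other 6 lncRNAs. Control replicates 1 and 2 held 3006 and 1303 FPKM, and GLUP replicates 1 and 2 held 1755 and 7866 FPKM. GLUP replicate 1 thus lay between the control libraries and GLUP replicate 2 above them, so that the groups overlapped. *TUG1* came next, with 2.53 and 3.41 FPKM in control cells and 2.08 and 1.83 FPKM with GLUP. *NEAT1* held 1.24 and 1.15 FPKM without the peptide and 1.04 and 1.05 FPKM under it, the narrowest range of the 7 relative to its level. *NORAD* matched *NEAT1* in control cells, with 1.22 and 1.16 FPKM, but was at 0.418 and 0.383 FPKM with GLUP. In GLUP-treated cells *NORAD* was therefore nearer to *H19* than to *NEAT1*.

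**Figure D1:**
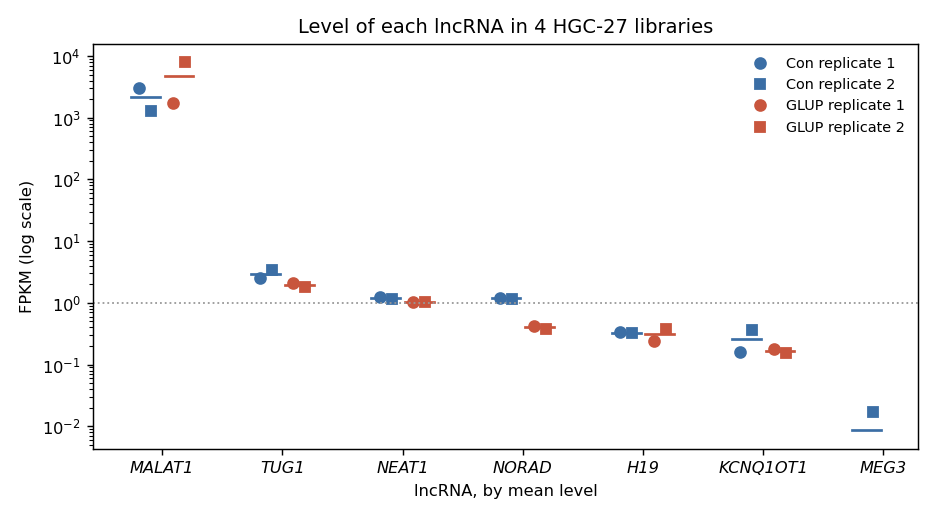
FPKM on a log scale (vertical axis) of each of the 7 lncRNAs (horizontal axis) in the control (blue) and GLUP (red) libraries, with circles for replicate 1, squares for replicate 2, horizontal bars for the group means and a dotted line at 1 FPKM. *MALAT1* lies at 1303 FPKM or more in every library, *NORAD* is the member whose 2 GLUP points sit clearly under its control points, and the 3 *MEG3* values listed at 0 cannot be drawn on this axis.

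The imprinted lncRNAs were barely detected. *H19* was at 0.332 and 0.326 FPKM in control cells and at 0.237 and 0.379 FPKM with GLUP, and its GLUP libraries enclosed both control values. *KCNQ1OT1* was at 0.158 and 0.363 FPKM against 0.176 and 0.152 FPKM, with control replicate 2 standing above the other 3 libraries. *MEG3* was listed at 0.0172 FPKM in control replicate 2 and at 0 in the other 3 libraries. In the order of levels, *MALAT1* was separated from *TUG1*, and *TUG1* from *NEAT1*, in every library of both groups. In control cells the ranges of *NEAT1* and *NORAD* overlapped, as did those of *H19* and *KCNQ1OT1*, so neither pair differed beyond its spread there. With GLUP these pairs did not overlap, and the highest value of *H19* (0.379 FPKM) lay just under the lowest of *NORAD* (0.383 FPKM).

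The length behind each value matters for this order, since only the value of the whole gene was given. *NORAD* has 1 annotated transcript of 5401 bases. *MALAT1* has 66 annotated transcripts of 282 to 10434 bases, *NEAT1* 9 of 512 to 22743 bases and *KCNQ1OT1* 14 of 576 to 91667 bases. Which of them carried the fragments is not known, and the short and long forms of *NEAT1*, of which only the long one builds paraspeckles, were not separated.

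*NORAD* was the member with the clearest difference, and its sequence is shown here for that reason. *NORAD* (ENSG00000260032) is at chr20:34633540-34638940 of GRCh37, minus strand, and no annotated gene overlaps it. Pumilio proteins are RNA-binding repressors that recognise the 8-base motif TGTANATA, in which N is any base and T stands for U in the RNA. On the transcript strand of the annotated *NORAD* transcript the motif occurred 15 times, or 2.78 times per kilobase. Only 2 of 7570 tested genes (0.0264%) had a longest transcript at least as dense in this motif. The other 6 lncRNAs had between 0 and 9 copies, with none in *MALAT1* or *H19*. An example of each variant found in *NORAD* is given below with 8 bases on either side and the motif in capitals; the motifs begin at bases 819, 1299 and 1509 of the transcript.
NORAD site 1: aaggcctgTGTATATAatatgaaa
NORAD site 3: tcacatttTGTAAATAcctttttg
NORAD site 5: gtatatagTGTACATAaaggacag

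TEAD factors bind the M-CAT element, whose core reads CATTCC on a strand and GGAATG on the other. Both strands were searched in the RefSeq promoter windows of GRCh38.p14, which run from 250 bases before to 50 bases after an annotated start site. Windows were found for 5 of the 7 lncRNAs (8 windows in all), and not for *NEAT1* and *KCNQ1OT1*. *NORAD* had the core in its window, and the 7 windows of *MALAT1*, *TUG1*, *H19* and *MEG3* did not. It was present in 14% of the 35116 windows of all genes, and at least 2 copies were present in 1.36%. The *NORAD* window held 2 copies, which begin 123 and 116 bases before the start site and are in capitals here, 5′ to 3′ along the minus strand of chr20:36050911-36051210. A match of letters does not show that the factor binds there.
NORAD promoter: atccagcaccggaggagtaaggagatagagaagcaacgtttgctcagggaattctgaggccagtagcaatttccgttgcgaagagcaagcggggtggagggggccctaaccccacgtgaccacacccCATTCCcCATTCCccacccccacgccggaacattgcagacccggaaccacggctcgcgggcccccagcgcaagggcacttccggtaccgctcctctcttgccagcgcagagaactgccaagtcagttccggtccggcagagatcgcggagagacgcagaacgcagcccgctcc

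To ask whether GLUP changed these RNAs, limma was applied to log2(FPKM + 1) values, a scale on which the fold change of a low gene is understated. Genes needed a 4-library mean of 1 FPKM or more, and *MALAT1*, *TUG1* and *NEAT1* met it. Of these 3, none had a limma adjusted p under 0.05, and none had an unadjusted p under 0.05 with a fold change over 2 in either direction. Over all 7588 genes tested, 0.0264% passed the adjusted threshold with a fold change over 2, while 14.5% were lower and 4.67% higher by the unadjusted one. After centring each library on its median, 428 genes were lower and 796 higher by the unadjusted rule, against 1103 and 354 as deposited, so the direction that prevails depends on the scaling. All tested genes together had a median of −0.36 on this scale, and the values of the members are also given relative to it.

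The mean of *MALAT1* was 2154 ± 1204 FPKM (SD, n = 2) in control cells and 4811 ± 4321 FPKM (SD, n = 2) with GLUP. Its log2 fold change of 0.91 (95% interval −0.98 to 2.80, adjusted p = 0.420 from limma) did not exceed the spread between libraries. Relative to the median of all genes it was 1.26. The value rested on a single library. It was −0.17 without GLUP replicate 2 and 1.99 without GLUP replicate 1, where the unadjusted p was 0.00812 and the adjusted p 0.579. The GLUP libraries differed 4.48-fold in *MALAT1* and the control libraries 2.31-fold. Such a gap between the GLUP libraries was rare. Only 12 of the 7588 genes (0.158%), *MALAT1* included, had a difference at least as large as the 2.16 of *MALAT1* on the log2 scale, and among the 607 genes averaging 100 FPKM or more there was a single other gene, *BEST1*, which was at 0.354 and 296 FPKM with GLUP and was named after its values were seen.

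In each library *MALAT1* was among the most abundant lncRNAs. It was the first of the annotated lncRNAs in control replicate 1 and in both GLUP libraries and the third in control replicate 2, and it took 0.330% and 0.141% of the summed FPKM in control cells and 0.188% and 0.828% with GLUP. *MALAT1* (ENSG00000251562) is at chr11:65265111-65275544 of GRCh37, plus strand. An antisense lncRNA that overlaps it, ENSG00000270117, was listed at 0 in every library. *TALAM1*, a longer antisense lncRNA that also overlaps *MALAT1*, was not among the genes with values, so its level is not known. No source used here says if reads were counted by strand. The genes closest to *MALAT1* in their 4 values, each taken as a deviation from the gene's own mean, were *DDTL*, *CBR1-AS1* and *ATP5F1A*, at Euclidean distances of 0.73, 0.77 and 0.85 on the log2 scale. *ATP5F1A*, a subunit of the mitochondrial ATP synthase, was at 223 and 95.4 FPKM in control cells and at 257 and 593 FPKM with GLUP. Its high value in GLUP replicate 2 follows from its choice as a gene close to *MALAT1*.

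*NEAT1* did not pass the test either. Control cells held 1.19 ± 0.0620 FPKM (SD, n = 2) and GLUP-treated cells 1.05 ± 0.00740 FPKM (SD, n = 2). The log2 fold change was −0.10 (95% interval −0.64 to 0.45, adjusted p = 0.770 from limma). Both GLUP libraries lay under both control libraries, as in 49.7% of all genes tested. Relative to the median of all genes the value was 0.26, and it turned positive when libraries were centred (0.24) and after the GC correction described below (0.44). *NEAT1* (ENSG00000245532) lies on chromosome 11 from 65190245 to 65213011, upstream of *MALAT1*, and their shared neighbour *FRMD8* was at 0.458 and 0.806 FPKM in control cells and 0.657 and 0.593 FPKM with GLUP. The genes closest to it in their 4 values were *SP100*, *FENDRR* and *DENND1A*, at distances of 0.030, 0.032 and 0.043. *SP100*, a component of PML nuclear bodies, was at 9.71 and 9.05 FPKM in control cells and 8.57 and 8.57 FPKM with GLUP.

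*TUG1* had its lower values in both GLUP libraries, but the difference did not pass the test. Its mean went from 2.97 ± 0.617 FPKM (SD, n = 2) without the peptide to 1.96 ± 0.181 FPKM (SD, n = 2) under it, with a log2 fold change of −0.42 (95% interval −1.08 to 0.24, adjusted p = 0.302 from limma). Relative to all genes this was −0.063, close to the median gene, and with the GC correction the value was 0.18. Leaving out a library in turn gave values between −0.58, without control replicate 1 (unadjusted p = 0.0486), and −0.26, without control replicate 2. *TUG1* (ENSG00000253352) lies on chromosome 22 from 31365231 to 31375381 and is annotated as protein-coding in the release used here. *MORC2*, transcribed away from it on the opposite strand at a distance of 470 bases, was at 1.498 and 0.359 FPKM in control cells and 0.701 and 1.303 FPKM with GLUP, so that the neighbours did not share a pattern. The closest genes in their 4 values were *RWDD1*, *TAF1B* and *GPSM2*, at distances of 0.025, 0.037 and 0.047.

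*NORAD* had a mean of 0.794 FPKM and was outside this fit. Its mean was 1.19 ± 0.0388 FPKM (SD, n = 2) in control cells and 0.401 ± 0.0250 FPKM (SD, n = 2) with GLUP, so that the GLUP level was 0.337 times the control level. When the limit was lowered to a mean of 0.5 FPKM, a choice made after its values were seen, 9970 genes were tested. The log2 fold change of *NORAD* was then −0.64 (95% interval −1.104 to −0.18, unadjusted p = 0.0142, adjusted p = 0.117 from limma), and 23.0% of the 9970 genes were lower at an unadjusted p under 0.05. With a pseudocount of 0.1 in place of 1 it was −1.36 (95% interval −2.38 to −0.34, unadjusted p = 0.0175, adjusted p = 0.123), and 20.4% of the 9970 genes were lower by the unadjusted rule on that scale. With all 28873 genes above 0 the same value had an unadjusted p of 0.0166, and 8.16% of genes were lower by the rule. Both GLUP libraries lay under both control libraries, as in 47.9% of these genes. Relative to the median of the 9970 genes the value was −0.36. With centring on medians it was −0.39 (unadjusted p = 0.0806) and no longer past the threshold. Leaving out a library in turn gave values between −0.66 and −0.63, but the unadjusted p was 0.108 without GLUP replicate 1 and 0.125 without GLUP replicate 2, so that *NORAD* lost the unadjusted threshold in both cases. Its adjusted p was 0.0386 without control replicate 1, a setting in which 2821 of the 9970 genes passed the adjusted threshold with a fold change over 2.

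A ratio within a library does not depend on how the libraries were scaled. The ratio of *NORAD* to *NEAT1*, chosen after the values were seen, was 0.983 and 1.01 in the control libraries and 0.402 and 0.364 in the GLUP libraries. That of *NORAD* to *TUG1* was 0.480 and 0.341 against 0.201 and 0.210. Neither pair of groups overlapped, and both ratios were lower in the GLUP libraries. Both hold *NORAD*, which was picked for its difference, so they restate its lower values. How often ratios of other genes fail to overlap was not counted. The ratio of *TUG1* to *NEAT1* was 2.05 and 2.97 in control cells and 2.00 and 1.74 with GLUP, where GLUP replicate 1 lay just under control replicate 1. With 2 libraries a group an exact permutation test cannot give a two-sided p under 0.05, and none was made. The neighbours of *NORAD* were low, with *CNBD2* at 0.115 and 0.874 FPKM in control cells and 0.332 and 1.13 FPKM with GLUP, and *EPB41L1* under 0.062 FPKM in every library.

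The base composition of the genes moved with these values. GC content was taken from the longest annotated transcript. The tested genes were split into 5 GC classes of equal size. In the class from 40.02% to 44.1% GC the median difference was −0.64 on the log2 scale, and both GLUP libraries lay under both control libraries for 70.5% of the genes. In the class with the highest GC content the corresponding values were 0.44 and 11.5%. *NORAD* (41.8%), *MALAT1* (42.0%), *TUG1* (43.1%), *KCNQ1OT1* (43.7%) and *NEAT1* (44.1%) all fell in the former, whereas *MEG3* had 48.1% and *H19* 63.6%. Of the 3 lncRNAs among the genes classed, *TUG1* (−0.42), *NEAT1* (−0.10) and *MALAT1* (0.91) all lay above the median of their class. *NORAD*, with a mean under 1 FPKM, was not among them. When the GC trend was subtracted from each library, the log2 fold change of *NORAD* was −0.07 (unadjusted p = 0.719 from limma), or −0.54 (unadjusted p = 0.230) with a pseudocount of 0.1. The difference of *NORAD* was therefore no longer past the unadjusted threshold. Relative to the median after this correction, *NORAD* was at −0.084, and at −0.53 with the pseudocount of 0.1. That of *MALAT1* was 1.55 (unadjusted p = 0.101). Treatment and library cannot be told apart as the source of the GC trend, since each library received a single treatment.

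**Figure D2:**
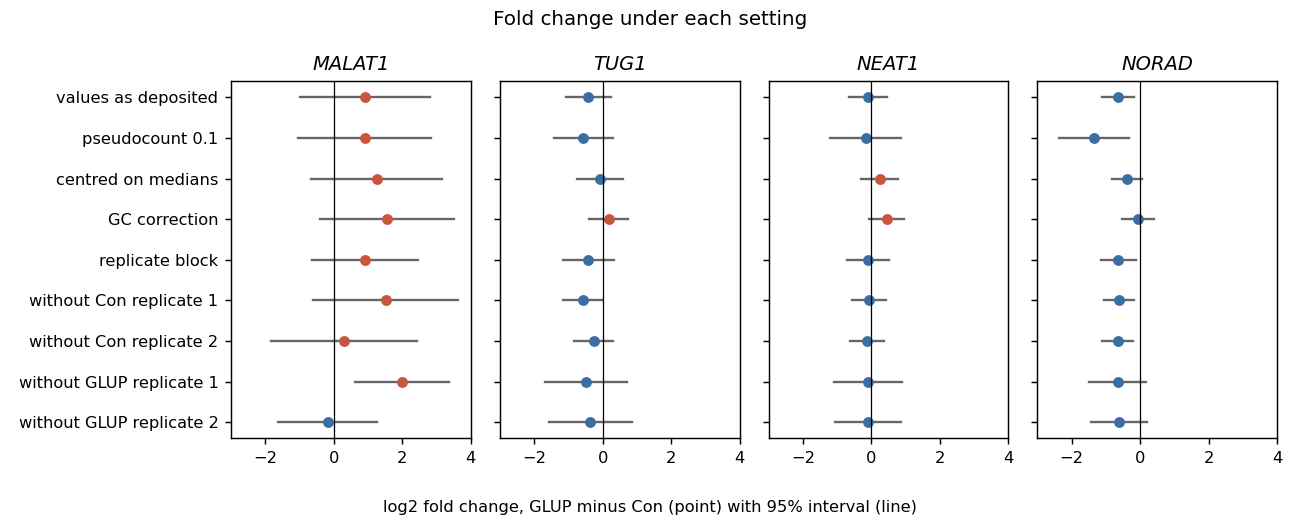
Log2 fold change of GLUP against control (points, red above 0 and blue below) with 95% intervals from limma (lines) for 4 lncRNAs under 9 settings. *MALAT1* runs from −0.17 to 1.99 depending on the GLUP library left out, and *NORAD* lies below 0 throughout but reaches −0.07 with the GC correction. The panel of *NORAD* uses genes averaging 0.5 FPKM or more.

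Other lncRNAs were measured in the same libraries. Of 534 annotated lncRNAs that averaged 1 FPKM or more, 82.0% had a log2 fold change below 0, against 66.7% of all genes tested, and their median was −0.50. By the unadjusted rule 14.4% of the 534 were lower and 0.562% higher. In a list of 24 other well-studied lncRNAs, 17 were tested, 4 were lower by this rule and none was higher, and no gene passed the adjusted threshold. The 4 were *CRNDE*, *MIR100HG*, *JPX* and *CYTOR*. *CRNDE*, a lncRNA raised in several tumours, was at 4.43 and 7.83 FPKM in control cells and 0.774 and 1.16 FPKM with GLUP (log2 fold change −1.82, limma adjusted p = 0.10). *CYTOR* was at 60.1 and 124 FPKM against 34.8 and 36.9 FPKM, without overlap. *FENDRR*, which did not pass, was at 1.15 and 1.06 FPKM in control cells and 0.987 and 0.935 FPKM with GLUP. The median of the list relative to all genes was 0.010, and none of the 4 was past the rule with the GC correction. The lower genes numbered 2 with centring, without control replicate 2 or without GLUP replicate 2.

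The proteins that these lncRNAs work with were measured in the same libraries. Of 14 paraspeckle proteins, which gather on *NEAT1*, 13 were tested. By the unadjusted rule 1 was lower and none was higher, against 14.5% lower and 4.67% higher of all genes tested. Their median relative to all genes was 0.079. *TARDBP*, which encodes TDP-43, was at 9.43 and 13.9 FPKM in control cells and 4.92 and 3.45 FPKM with GLUP (log2 fold change −1.28, adjusted p = 0.101 from limma). *NONO*, a core protein of the body, held 90.3 and 195 FPKM in control cells and 79.2 and 79.5 FPKM under the peptide. *SFPQ*, its partner, held 12.5 and 25.9 FPKM in control cells and 8.62 and 11.95 FPKM under the peptide. Neither passed the unadjusted threshold. *EWSR1*, an RNA-binding protein, was at 22.4 and 5.80 FPKM in control cells and 29.4 and 25.1 FPKM with GLUP, with control replicate 2 standing apart, and did not pass. With the GC correction *EWSR1* and *HNRNPK* were higher by the rule and no gene of the list was lower. In that fit 355 of 7570 genes were higher and 345 lower. *HNRNPK* was at 106 and 44.5 FPKM in control cells and 136 and 148 FPKM with GLUP. With centring 3 of the list were higher and none was lower, where 796 of 7588 genes were higher and 428 lower.

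Nuclear speckle proteins, the surroundings of *MALAT1*, had 5 lower and 1 higher gene among 13 tested (15 listed), where 14.5% of all genes tested were lower and 4.67% higher, with a median relative to all genes of −0.39. The lower ones were *EIF4A3*, *BCLAF1*, *SRRM1*, *CLK1* and *SF3B1*, and of these *EIF4A3* alone was past the rule with the GC correction. The lower genes numbered 2 with centring, without control replicate 2 or without GLUP replicate 1, and 3 without GLUP replicate 2. *EIF4A3*, a core subunit of the exon junction complex, was at 15.4 and 8.40 FPKM in control cells and 2.69 and 3.40 FPKM with GLUP (log2 fold change −1.62, limma adjusted p = 0.10). *RNPS1*, which binds the same complex, was at 19.4 and 6.94 FPKM against 36.8 and 28.3 FPKM (log2 fold change 1.39, adjusted p = 0.139).

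Enzymes that cut the end of *MALAT1* formed a further list, with RNase P, which makes the cut, and RNase Z (*ELAC2*), which trims the small RNA that is released. All 11 were tested, 4 were lower by the unadjusted rule (*POP5*, *RPP40*, *RPP30* and *ELAC2*) and none was higher, against 14.5% lower and 4.67% higher of all genes tested, and the relative median was −0.23. The lower genes numbered 0 without GLUP replicate 1 and 2 without GLUP replicate 2. *POP5* was at 273 and 371 FPKM in control cells and 88.0 and 125 FPKM with GLUP (log2 fold change −1.60, limma adjusted p = 0.10). *ELAC2* was at 4.12 and 2.54 FPKM against 1.00 and 1.25 FPKM (log2 fold change −1.004, adjusted p = 0.108). With the GC correction 3 were lower by the rule, *POP5*, *ELAC2* and *POP4*, as were 345 of the 7570 genes in that fit. *POP7* was at 76.8 and 40.5 FPKM in control cells and 94.6 and 92.0 FPKM with GLUP and did not pass.

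Partners of *NORAD* showed no such calls. Of 8 listed, 6 were tested, with a relative median of 0.23. None was lower or higher by the unadjusted rule in limma, where 14.5% of all genes tested were lower and 4.67% higher. A list of 6 genes is too short to be told apart from those shares. *PUM2*, a Pumilio protein, was at 0.659 and 0.672 FPKM against 0.421 and 0.286 FPKM and had a mean under 1 FPKM. *CDC5L*, a spliceosome subunit, held 4.67 and 6.53 FPKM in control cells and 3.43 and 2.97 FPKM under the peptide. *ALYREF*, an mRNA export factor, held 1.81 and 1.71 FPKM and then 2.30 and 2.08 FPKM. Neither passed the unadjusted threshold.

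Polycomb repressive complex 2 (PRC2) deposits H3K27 methylation and has been linked to several of these lncRNAs. Of 11 subunits, 7 were tested. Each of the 7 had a negative log2 fold change, as did 66.7% of all genes tested. By the unadjusted rule 3 were lower, against 14.5% of all genes, and the relative median was −0.33. The lower subunits numbered 2 with centring and without any of control replicate 2, GLUP replicate 1 or GLUP replicate 2 in turn. *EZH2*, the catalytic subunit, was at 5.997 and 11.3 FPKM in control cells and 2.29 and 1.96 FPKM with GLUP (log2 fold change −1.57, limma adjusted p = 0.10). *EED*, which binds the methylated histone, was at 6.41 and 8.95 FPKM against 1.86 and 2.32 FPKM, and *AEBP2*, an accessory subunit, at 1.81 and 2.23 FPKM against 0.575 and 0.285 FPKM. *RBBP4*, a histone-binding subunit, stood at 3.57 and 3.38 FPKM in control cells and 2.31 and 2.45 FPKM with GLUP. With the GC correction no subunit was past the unadjusted rule.

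Factors that keep imprints were few. Of 7 listed, 4 were tested, and 2 were higher by the unadjusted rule, against 4.67% of all genes. Without GLUP replicate 1 or without control replicate 2 there was 1, and without GLUP replicate 2 there were 3. *DNMT1*, the maintenance DNA methyltransferase, was at 42.7 and 33.5 FPKM in control cells and 162 and 134 FPKM with GLUP (log2 fold change 1.93, limma adjusted p = 0.10), and it was at 1.70 with the GC correction. *TRIM28*, a co-repressor recruited to imprinted regions, was at 3.24 and 2.41 FPKM against 10.1 and 5.18 FPKM, and was not past the rule with the GC correction. *CTCF*, which insulates *IGF2* from the *H19* enhancers, was at 2.82 and 4.10 FPKM against 1.68 and 1.49 FPKM (log2 fold change −0.77, adjusted p = 0.134).

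Most genes of the imprinted lists were below 1 FPKM. *H19* (ENSG00000130600) lies on chromosome 11 from 2016396 to 2025782, 125 kb from *IGF2*, its reciprocally imprinted partner. *IGF2* was at 0.193 and 0.0473 FPKM in control cells and 0.241 and 0.2996 FPKM with GLUP. Both GLUP libraries thus lay above both control libraries, as in 17.5% of the genes averaging 1 FPKM or more. *IGF2* was under that limit, and its fit is not given here. In a fit of all 28873 genes with a value above 0, *H19* had a log2 fold change of −0.03 (95% interval −0.44 to 0.39, adjusted p = 0.938 from limma), or −0.0056 relative to the median of those genes. With a pseudocount of 0.1 the log2 fold change of *H19* was −0.095, with a wider 95% interval of −1.37 to 1.18. On the other side of *H19*, *MRPL23*, a mitochondrial ribosomal protein gene, was at 4.89 and 3.67 FPKM in control cells and 3.31 and 2.65 FPKM with GLUP. Of the *H19* and *IGF2* list, 3 of 8 genes were tested. None was past the unadjusted rule, where 14.5% of all genes tested were lower and 4.67% higher. *IGF2BP3*, an RNA-binding protein named for *IGF2*, held 1.81 and 2.12 FPKM in control cells and 1.06 and 0.848 FPKM under the peptide. Its relative *IGF2BP2* held 1.302 and 1.36 FPKM and then 0.607 and 0.780 FPKM.

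*KCNQ1OT1* (ENSG00000269821), on chromosome 11 from 2618538 to 2721233, is transcribed antisense to *KCNQ1*, within which it lies. *KCNQ1* was under 0.05 FPKM in every library, and *CDKN1C*, a growth inhibitor of the same domain, was at 0.0463 and 0.256 FPKM in control cells and listed at 0 and at 0.163 FPKM with GLUP. The log2 fold change of *KCNQ1OT1* in the fit of 28873 genes was −0.11 (95% interval −0.47 to 0.25, adjusted p = 0.665 from limma), or −0.09 relative to their median. That narrow interval depends on the pseudocount of 1. With a pseudocount of 0.1 the log2 fold change was −0.39 (95% interval −1.85 to 1.07), so a sizeable change in either direction is not excluded. For *MEG3* (ENSG00000214548), on chromosome 14 from 101245747 to 101327368, the fit has no meaning beyond the listing of a single value above 0. Its neighbours *DLK1* and *RTL1* and the genes that overlap it were listed at 0 in every library. Of 25 imprinted protein-coding genes, 5 were tested and 7 were listed at 0 throughout. None of the 5 was past the unadjusted rule, where 14.5% of all genes tested were lower and 4.67% higher. With a pseudocount of 0.1 in place of 1, 1 was lower and 1 was higher by the rule. On that scale 1670 of all 7588 genes were lower and 394 higher. With the GC correction *PHLDA2* was lower by the rule, as were 345 of the 7570 genes in that fit. *PHLDA2* was at 3.94 and 0.239 FPKM in control cells and 0.615 and 0.727 FPKM with GLUP, where control replicate 1 stood apart. *SLC22A18*, an organic cation transporter of the *KCNQ1OT1* domain, was at 1.06 and 1.52 FPKM against 4.26 and 2.95 FPKM (log2 fold change 0.998, unadjusted p = 0.0138, adjusted p = 0.106 from limma). Its fold change was just under 2 on the log2(FPKM + 1) scale, which understates it. The group means were 1.29 FPKM in control cells and 3.60 FPKM with GLUP. *SGCE* was at 3.71 and 6.04 FPKM in control cells and 1.96 and 1.96 FPKM with GLUP. Its log2 fold change was −0.96 (unadjusted p = 0.0220, adjusted p = 0.118 from limma), also just short of the rule. *SLC22A18* had 62.1% GC, in the class with a median of 0.44, and *SGCE* 34.2%, in the class with a median of −0.78. With the GC correction neither was past the rule. Among imprinted non-coding RNAs, 7 of 8 were found in the table, 5 were listed at 0 throughout, and *GNAS-AS1* alone was tested, at 1.95 and 0.990 FPKM in control cells and 2.36 and 2.10 FPKM with GLUP.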

How the data were processed

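RNA of 4 HGC-27 libraries (2 control, 2 GLUP) was sequenced, and the authors deposited FPKM values, 1 row per gene. Reads were analysed by the authors on the Majorbio platform. The submitters' processing notes name HISAT2, Cufflinks, RSEM and GRCh38.p10 with no role or version, whereas the gene IDs have the form of GENCODE annotation lifted to GRCh37. Positions, names, lengths and GC content were therefore taken from GENCODE v44 lifted to GRCh37, to which 99.5% of 62443 IDs matched, and promoter sequences from RefSeq on GRCh38.p14. Rows of 1 ID were summed (62492 rows). Strand use and filters are not given in the sources used here.

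Values were compared as log2(FPKM + 1) with limma 3.58.1 in R 4.3.3 (variance trend, Benjamini-Hochberg adjustment) for genes averaging 1 FPKM or more. The unadjusted rule is p under 0.05 with a fold change over 2. The replicate number was no term. The GC correction subtracted from each library a lowess curve (span 0.3) of its differences to the gene means against GC content, which 7570 of the 7588 genes had. The members and lists were chosen with earlier results of these data known. List genes were named if they had the highest or lowest fold change among non-overlapping genes, or from a fixed set of 11 names, along with neighbouring genes and the 3 nearest patterns; the other genes past the rule were named after their values were seen. Some genes that this rule names are not reported here. Alternatives were a pseudocount of 0.1, other filters, centring, quantile normalization, rescaling to equal sums, the replicate block, no variance trend, a fold of 1.5, a ratio of means and leaving out each library. The limit of 0.5 FPKM, the pseudocount of 0.1 with all genes, and the within-library ratios were added after seeing the data. The fit was tested on simulated data. Small abundant RNAs were also listed: 3 of 6 matched, and *RN7SL2* was at 10.2 and 9.85 FPKM in control cells and 21.6 and 25.8 FPKM with GLUP.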

Additional observations from a re-analysis of the deposited data

How the results depend on the processing

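The 3 tested lncRNAs gave no call, lower or higher by the unadjusted rule, in the fit as reported. That count became 1 higher without GLUP replicate 1 (*MALAT1*, at 1.99), the counts with a library left out running from 0 to 0 for lower and from 0 to 1 for higher members, and 1 lower with a pseudocount of 0.1 together with all genes above 0 or with a mean of at least 0.5 FPKM (*NORAD*). No setting took a member past the adjusted threshold with a fold change over 2 (0 in each). With the replicate number as a block, 1211 genes were lower and 477 higher against 1103 and 354 without it, *NORAD* had an unadjusted p of 0.0214, and no call of a member changed. The differences between replicates correlated at 0.126 between the groups, and nothing says that equal numbers share a day. Directions turned as follows. *MALAT1* was at −0.17 without GLUP replicate 2. *NEAT1* was at 0.24 with centring, 0.089 with quantile normalization and 0.44 with the GC correction, alone or with the block. *TUG1* was at 0.18 with the GC correction, alone or with the block. With the GC correction, alone or with the block, *ALYREF* was at −0.16, *CDC5L* at 0.12, *FENDRR* at 0.24, *IGF2BP3* at 0.0902 and *RBBP4* at 0.26. *FENDRR* was at 0.24 with centring and at 0.077 with quantile normalization. The cause was not tested. Over the whole table, genes lower and higher by the rule numbered 345 and 355 with the GC correction, 428 and 796 with centring and 486 and 673 with quantile normalization. They numbered 1670 and 394 with a pseudocount of 0.1, 704 and 186 at a mean of 5 FPKM, and 1749 and 980 without control replicate 1. Adjusted calls numbered 2 as reported, 2710 without control replicate 1, 1020 without control replicate 2 and 4 with GLUP replicate 1 or 2 left out in turn. In these fits a group has 1 library, assumed to vary like the other group. Counts of lower genes ran from 1 to 6 for nuclear speckle proteins, from 0 to 5 for RNase P and RNase Z, from 0 to 3 for PRC2 and from 0 to 6 for the other lncRNAs over all settings, and those of higher imprint factors from 1 to 3. Unknown depth limits the members under 1 FPKM most, since their counting error cannot be stated.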
